A study of Mus musculus with 2 samples.

Results

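The histone genes were taken from a table of gene expression in mouse mammary basal cells, by gene symbol. Symbols starting with Hist1h, Hist2h, Hist3h or Hist4h were counted as replication-dependent genes, and symbols starting with H2af, H3f3 or H1f as variant genes. Of 15239 genes listed, 36 were members: 25 replication-dependent genes and 11 variant genes. The replication-dependent genes comprised 3 of type H1, 8 of H2A, 10 of H2B, 1 of H3 and 3 of H4, and the variants 1 of H1, 5 of H2A and 5 of H3. The mouse annotation (GENCODE M21, GRCm38) held 91 genes with such symbols, 70 of them Hist symbols. Only genes above 0 in both libraries are listed in the table, so histone mRNAs seen in 1 library alone have no value here.

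The study compared 2 groups of 1 library each: cells with a scrambled short hairpin RNA (Scramble control) and cells with a hairpin against Cdk14 (Cdk14-sh), both labelled as normal mammary gland tissue and mammary basal cells. Cdk14 encodes a kinase of the cyclin-dependent family whose partner is cyclin Y. The labels differ on the material: a human breast cancer line, MDA-MB-231, appears in the series' design text and retinas in the extraction protocol, while the gene identifiers are those of mouse. The labels give no age, strain, time after the hairpin, further hairpin, clone or pooling of animals. With 1 library per group there is no replicate check, no test was made, and every statement compares these libraries and not the conditions.

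Replication-dependent histone genes lie in clusters, are transcribed in S phase, and supply the histones that package newly made DNA. Their mRNAs are not normally polyadenylated: they end just after a conserved stem-loop that is bound by the stem-loop binding protein (Slbp) and cut by a complex guided by the U7 small nuclear RNA. Variant histones such as H3.3 (H3f3a, H3f3b), H2A.Z (H2afz, H2afv) and macroH2A (H2afy) come from genes outside the clusters, have polyadenylated mRNAs, and are made through the cell cycle and in resting cells. In the mammary gland, as in other tissues, replication-dependent histone mRNA is thus tied to dividing cells. Some replication-dependent genes can also give longer, polyadenylated mRNAs from a site downstream of the stem-loop. The libraries were made with a stranded mRNA kit; the labels do not say how mRNA was selected.

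The stem-loop separates the classes by sequence, so it is shown for replication-dependent genes of types H1, H2A, H2B and H4, from the lowest log2 ratio (Hist1h2bm) to the highest (Hist1h2ac), and for the variant that carries it. In the sequences below, read 5′ to 3′ from GENCODE M21 transcripts, capitals mark the stem-loop of 16 bases and lower case the 5 bases on either side.
Hist1h2bm: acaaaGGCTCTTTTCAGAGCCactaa
Hist1h4i: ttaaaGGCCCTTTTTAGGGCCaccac
Hist1h1c: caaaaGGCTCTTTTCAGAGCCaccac
Hist1h2bk: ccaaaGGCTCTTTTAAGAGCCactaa
Hist1h4h: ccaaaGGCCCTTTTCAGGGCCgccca
Hist1h2ac: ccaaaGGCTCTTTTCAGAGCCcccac
H2afx: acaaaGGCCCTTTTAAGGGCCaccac
The search pattern required GG at the start and CC at the end of the 16 bases, so the shared outer letters of the stem were set by the search. At the inner letters of the stem it allowed C or T on the left side and A or G on the right. In the stem-loops shown, these inner letters have a form shared by the H1, H2A and H2B genes and another shared by the H4 genes and H2afx. The loop letters vary among members. A match was present in transcripts of 80 of 55450 annotated genes, 47 of them with a histone symbol of the rule. Among the members, 19 of 25 replication-dependent genes had a match and 1 of 11 variants, H2afx. In H2afx, 822 bases of the model follow the stem-loop and a poly(A) hexamer (AATAAA or ATTAAA) lies in the last 50 bases, and this gene is known to make both kinds of mRNA. In 8 replication-dependent genes the annotated model ended within 60 bases of the stem-loop, in 11 it ran on further, and in 6 no stem-loop was in the model (Hist1h1b, Hist1h2al, Hist1h2bc, Hist1h2bn, Hist1h2br and Hist1h3i). A poly(A) hexamer lay in the last 50 bases of 8 of the 25 replication-dependent models and of 8 of the 11 variant models, the other 3 being pseudogenes.

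Several H2A and H2B genes start head to head and share the DNA between their starts. Promoter windows of 300 bases (250 before to 50 after the RefSeq start, GRCm38.p6) are given for 3 members of such pairs, whose values come further on. Capitals mark the letters CCAAT and the letters TATAAA and the octamer ATTTGCAT, all searched on both strands; no 2 matches overlapped in any of the 31 member windows.
Hist1h2ac (chr13:23683910-23684209, minus strand, paired with Hist1h2bc): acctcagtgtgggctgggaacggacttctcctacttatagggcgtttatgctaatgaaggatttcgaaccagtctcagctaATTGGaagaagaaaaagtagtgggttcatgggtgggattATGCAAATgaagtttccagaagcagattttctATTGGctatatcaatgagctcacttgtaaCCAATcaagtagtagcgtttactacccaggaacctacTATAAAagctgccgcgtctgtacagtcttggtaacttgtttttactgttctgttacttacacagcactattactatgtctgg
Hist1h2br (chr13:21833493-21833792, plus strand, paired with Hist1h2ap): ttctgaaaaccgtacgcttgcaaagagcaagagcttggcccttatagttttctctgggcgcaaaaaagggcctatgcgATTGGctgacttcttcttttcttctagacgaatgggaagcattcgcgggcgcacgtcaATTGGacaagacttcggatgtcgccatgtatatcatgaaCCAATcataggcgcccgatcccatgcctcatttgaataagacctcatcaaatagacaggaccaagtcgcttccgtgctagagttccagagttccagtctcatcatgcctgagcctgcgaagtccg
Hist1h2bg (chr13:23571150-23571449, plus strand, paired with Hist1h2ae): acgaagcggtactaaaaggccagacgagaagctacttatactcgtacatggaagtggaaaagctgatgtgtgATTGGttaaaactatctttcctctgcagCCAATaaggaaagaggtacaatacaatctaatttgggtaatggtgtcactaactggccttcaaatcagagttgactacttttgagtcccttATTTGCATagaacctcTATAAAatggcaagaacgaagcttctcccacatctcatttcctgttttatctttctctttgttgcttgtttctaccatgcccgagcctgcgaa
The windows of Hist1h2ac and Hist1h2bg held all 3 motifs, and that of Hist1h2br held CCAAT in 3 places without the other 2. CCAAT was present in 20 of the 22 replication-dependent genes with a window and in 5 of 8 variants, against 37.4% of 32851 promoter windows of the same length. TATAAA was present in 12 of 22 and in 1 of 8, against 13.6%, and the octamer in 7 of 22 and in 1 of 8 (H3f3b), against 1.74%. Hist1h2be has a window at each of 2 starts and was counted where either held the motif. These matches describe the letters in the windows and were not tested as binding sites.

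Levels are given in FPKM, which scale reads to the length of the transcript and to the library's total. They are thus per length and are set beside each other between genes. Since the selection of mRNA is not stated, mRNAs with and without a poly(A) tail may differ in capture, which was not tested. Among the listed genes, H3.3 mRNA stood far above all other histone mRNA. H3f3b, which encodes H3.3, was at 1101 FPKM in Scramble control and 1498 FPKM in Cdk14-sh, and H3f3a, which encodes the same protein, at 56.8 and 53.7 FPKM. The level of H3f3b was thus 19.4 times that of H3f3a in Scramble control and 27.9 times in Cdk14-sh. H2afz followed at 154 and 192 FPKM, and Hist1h2bc, an H2B gene, was the highest replication-dependent gene at 99.5 and 189.7 FPKM. The next of that class was Hist1h2ap, at most 37.2 FPKM. The median over that class of the mean of both libraries was 3.94 FPKM, against 31.9 FPKM over the variants.

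**Figure D1:**
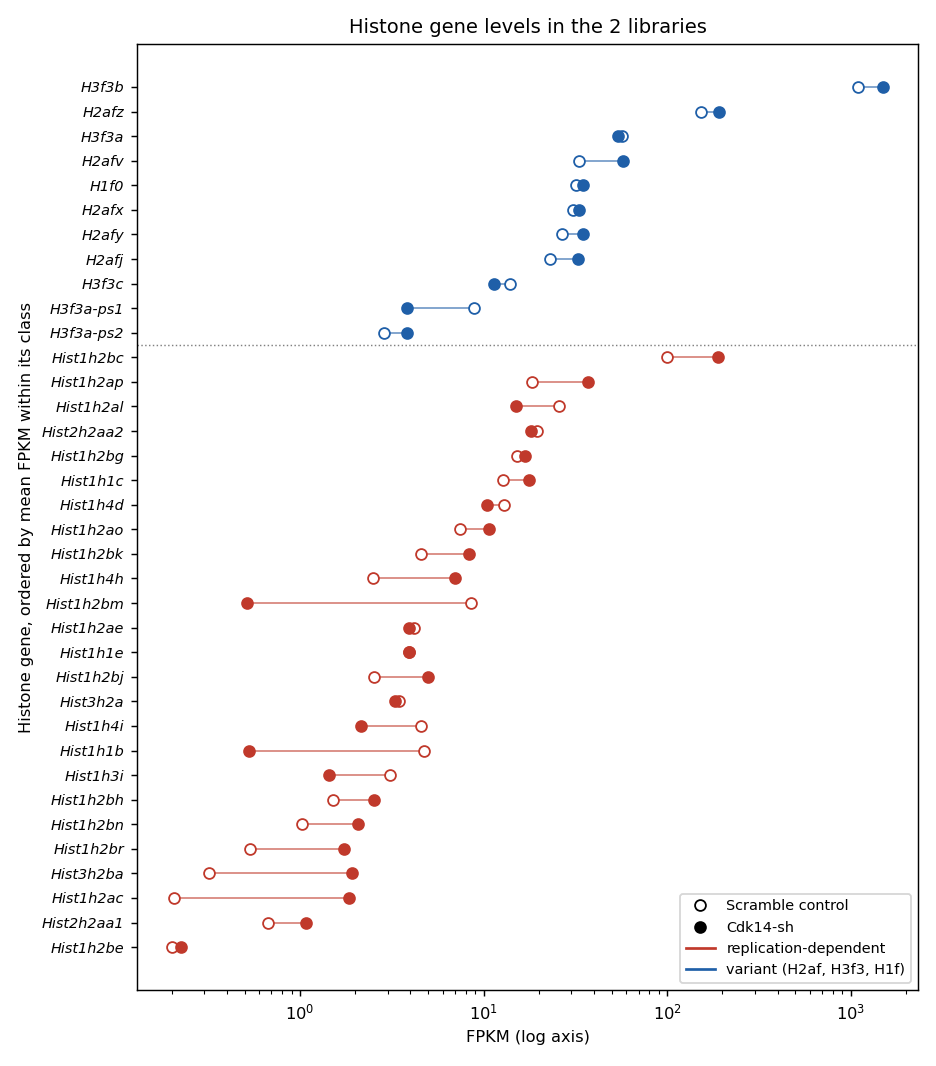
Level of each of the 36 histone genes in FPKM on a log axis, with open circles for Scramble control and filled circles for Cdk14-sh, 1 library each, and a line joining the values of a gene. H3f3b stood highest at 1101 and 1498 FPKM, most replication-dependent genes lay between 1 and 50 FPKM, and the longest lines belong to low replication-dependent genes such as Hist1h2bm, Hist1h1b and Hist1h2ac.

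The 25 replication-dependent genes summed to 258 FPKM in Scramble control and 364 FPKM in Cdk14-sh, a ratio of 1.41. The 11 variants summed to 1482 and 1956 FPKM, a ratio of 1.32. Hist1h2bc supplied 90.2 of the 105.4 FPKM by which the replication-dependent sum was higher, and without it the sums were 159 and 174 FPKM, a ratio of 1.10. H3f3b supplied 397.1 of the 473.4 FPKM by which the variant sum was higher. Replication-dependent genes made up 14.8% of the listed histone FPKM in Scramble control and 15.7% in Cdk14-sh, so the share moved little. That small rise depended on Hist1h2bc, since the ratio of the other replication-dependent genes, 1.10, was below the 1.32 of the variants. Hist1h2bc alone went from 38.5% to 52.2% of its class, and H3f3b from 74.3% to 76.6% of the variants. In bulk samples, fewer cells of a type and less RNA per cell cannot be told apart.

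The balance between classes differed by histone type. Of the listed H3 FPKM, 99.7% in Scramble control and 99.9% in Cdk14-sh was variant. The variant sums were 1183 and 1571 FPKM, against 3.10 and 1.43 FPKM for Hist1h3i, the 1 replication-dependent H3 gene listed. Of the listed H2A FPKM the variants made up 77.0% and 79.3%, and of the listed H1 FPKM 59.9% and 60.9%. Genes the table leaves out and mRNAs not captured are missing from these shares, which describe the listed values alone. Core histone H2B and H4 mRNA came from replication-dependent genes alone, since no variant symbol of these types falls under the rule. The summed H2B level was 134 FPKM in Scramble control and 229 FPKM in Cdk14-sh, a ratio of 1.71. Without Hist1h2bc the H2B sum was 34.4 and 39.2 FPKM. The replication-dependent sums were 21.4 and 22.3 FPKM for H1, 79.8 and 91.4 for H2A, and 20.1 and 19.6 for H4.

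**Figure D2:**
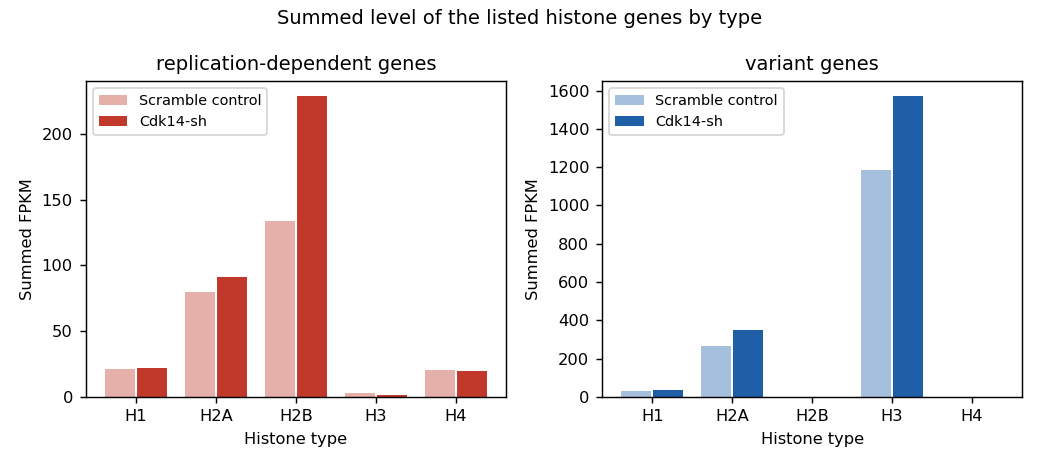
Summed FPKM of the listed genes by histone type, with replication-dependent genes on the left and variants on the right (each panel has its own linear axis from 0), paler bars for Scramble control and darker bars for Cdk14-sh, 1 library each. H2B leads the replication-dependent genes at 134 and 229 FPKM, and H3 leads the variants at 1183 and 1571 FPKM.

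For single genes, fold values are ratios of FPKM, with an interval in parentheses that covers counting error alone (95%, exact binomial, 2 reads taken as 1 fragment). The log2 ratio is that of Cdk14-sh to Scramble control after 1 FPKM was added to each, which understates differences of low genes. A gene was counted as measured when both libraries averaged 1 FPKM or more, and as 2-fold different when its log2 ratio reached 1 or -1.

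Linker histone H1 closes the nucleosome and compacts chromatin. Hist1h1b was at 4.76 FPKM in Scramble control and 0.529 FPKM in Cdk14-sh, from 36 and 4 reads, 8.99-fold lower (2.15 to 79.9). It lies at chr13:21779883-21780625 and shared no stretch of 50 bases with another gene's transcripts. Hist1h1c was at 12.7 and 17.8 FPKM, from 202 and 282.5 reads, 1.40-fold higher (1.08 to 1.83). Hist1h1e was level, at 3.94 FPKM in both libraries. The variant H1f0, known for its accumulation in cells that have stopped dividing, was at 32.0 and 34.7 FPKM, a ratio of 1.08 (0.932 to 1.26). The H1 genes therefore went in different directions, and the 1 that was lower had the fewest reads of the H1 genes.

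Of the 8 replication-dependent H2A genes, 4 had a log2 ratio above 0 and 4 below. Hist1h2al was at 25.7 FPKM in Scramble control and 15.1 FPKM in Cdk14-sh, 1.71-fold lower (1.03 to 2.88). It is annotated as a processed pseudogene, at chr13:51202727-51203065, apart from the other Hist1 genes. Hist1h2ap was at 18.4 and 37.2 FPKM, from 90.5 and 182.5 reads, 2.02-fold higher (1.40 to 2.95), just under the 2-fold limit on the log2 scale (0.98). Hist2h2aa2 was at 19.6 and 18.2 FPKM (log2 ratio -0.10), Hist1h2ae at 4.16 and 3.92 (-0.07), and Hist3h2a at 3.48 and 3.29 (-0.06). Hist1h2ao and Hist2h2aa1 had log2 ratios of 0.47 and 0.31, with intervals that span 1. The largest ratio among H2A genes belonged to one of the lowest members. Hist1h2ac was at 0.206 FPKM in Scramble control and 1.86 FPKM in Cdk14-sh, 9.01-fold higher (2.55 to 54.8). It had the highest log2 ratio of all members, 1.24. Its recovered reads, 5.21 and 46.9, are neither whole nor in steps of 0.5, so they and the interval are approximate.

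H2B was the type with the most members on 1 side. Of 10 listed H2B genes, 9 were above 0 on the log2 scale (median over the 10 genes 0.67), while 53.3% of all 15224 gene symbols listed were above 0. Hist1h2bc, at chr13:23684199-23692908, rests on about 1172 and 2232 reads and was 1.91-fold higher (1.72 to 2.11), the narrowest interval of the replication-dependent genes. Hist1h2bk was at 4.54 and 8.36 FPKM, 1.84-fold higher (0.844 to 4.25). Hist1h2br was at 0.533 and 1.73 FPKM, 3.25-fold higher (1.25 to 9.93). Hist3h2ba, one of 2 listed genes of the Hist3 group on chromosome 11, was at 0.320 and 1.92 FPKM from 2 and 12 reads, 6.01-fold higher with an interval that spans 1 (0.729 to 276). Hist1h2bj, at 2.54 and 4.99 FPKM (log2 ratio 0.76), also had an interval that spans 1 (0.677 to 6.39). Hist1h2bg was at 15.2 and 16.9 FPKM, a ratio of 1.11 (0.736 to 1.67). The other H2B genes with ratios above 0, Hist1h2be, Hist1h2bh and Hist1h2bn, had log2 ratios from 0.03 to 0.59. Of these 9 genes, 2 had an interval above 1, Hist1h2bc and Hist1h2br, and Hist1h2bh had no interval because its reads were not recovered. Hist1h2br shared 88.7% of its 50-base stretches with other genes' transcripts.

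The H2B gene below 0, Hist1h2bm, had the lowest log2 ratio of all members, -2.65. It was at 8.50 FPKM in Scramble control and 0.516 FPKM in Cdk14-sh, 16.5-fold lower. Its identifier in the table is not in GENCODE M21, so its length and reads were not recovered directly. At 381 bases, the exonic length of Hist1h2bn, the values came to 33 and 2 whole reads, which gives a counting interval of 2.57-fold to 690-fold lower; that length was chosen after its values were seen. Hist1h2bm is annotated by symbol at chr13:21722044-21722567, with the stem-loop printed above 46 bases before the end of its model. On the log2 scale with 1 FPKM added, Hist1h2bm and Hist1h1b were the only replication-dependent genes at least 2-fold lower, and both were under 1 FPKM in Cdk14-sh.

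Of the H3 and H4 genes of the clusters, Hist1h4d had the most reads, 150.6 and 121.6. Hist1h3i was at 3.10 FPKM in Scramble control and 1.43 FPKM in Cdk14-sh, from 13 and 6 reads, 2.16-fold lower with an interval that spans 1 (0.479 to 13.2). Hist1h4i was at 4.59 and 2.16 FPKM, 2.12-fold lower (0.868 to 5.68), and Hist1h4d at 13.0 and 10.5 FPKM, 1.24-fold lower (0.870 to 1.76). Hist1h4h went the other way, at 2.49 and 6.96 FPKM, 2.79-fold higher (1.04 to 8.71). These H4 genes encode the same protein, core histone H4, and their sum was level between the libraries.

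All 5 variants of H2A had ratios above 1 and below 2. H2afv and H2afz encode forms of H2A.Z, which marks nucleosomes at promoters. H2afv was at 33.2 and 57.3 FPKM, 1.73-fold higher (1.49 to 2.01), and H2afz was 1.25-fold higher (1.16 to 1.34), so the level of H2afz over H2afv was 4.63 in Scramble control and 3.35 in Cdk14-sh. H2afj, known for its accumulation in senescent cells, was at 22.9 and 32.7 FPKM, 1.43-fold higher (1.19 to 1.71). H2afy, macroH2A1, was at 26.6 and 34.8 FPKM, 1.31-fold higher (1.20 to 1.43). H2afx, the variant phosphorylated at DNA breaks, was at 30.6 and 33.3 FPKM, a ratio of 1.09 (0.901 to 1.32).

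The H3.3 genes and their processed copies had ratios on both sides of 1. H3f3b was 1.36-fold higher in Cdk14-sh (1.33 to 1.39), from 33377 and 45373 reads, and H3f3a had a ratio of 0.945 (0.864 to 1.03). H3f3c, at 13.9 and 11.5 FPKM, had a ratio of 0.828 (0.462 to 1.47). H3f3a-ps1 was at 8.86 and 3.83 FPKM from 37 and 16 reads, 2.31-fold lower (0.961 to 6.12), and H3f3a-ps2 at 2.87 and 3.83 FPKM from 12 and 16 reads, a ratio of 1.33 (0.406 to 4.67). The last 3 are annotated as processed pseudogenes and share 54.3% to 82.0% of their 50-base stretches with other genes' transcripts. Among the 8 variants that are not pseudogenes, 7 were above 0 on the log2 scale, against 51.4% of all measured genes. Of these 8, 0 were 2-fold different, against 24.9% of genes at 5 to 50 FPKM and 14.2% of those above.

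**Figure D3:**
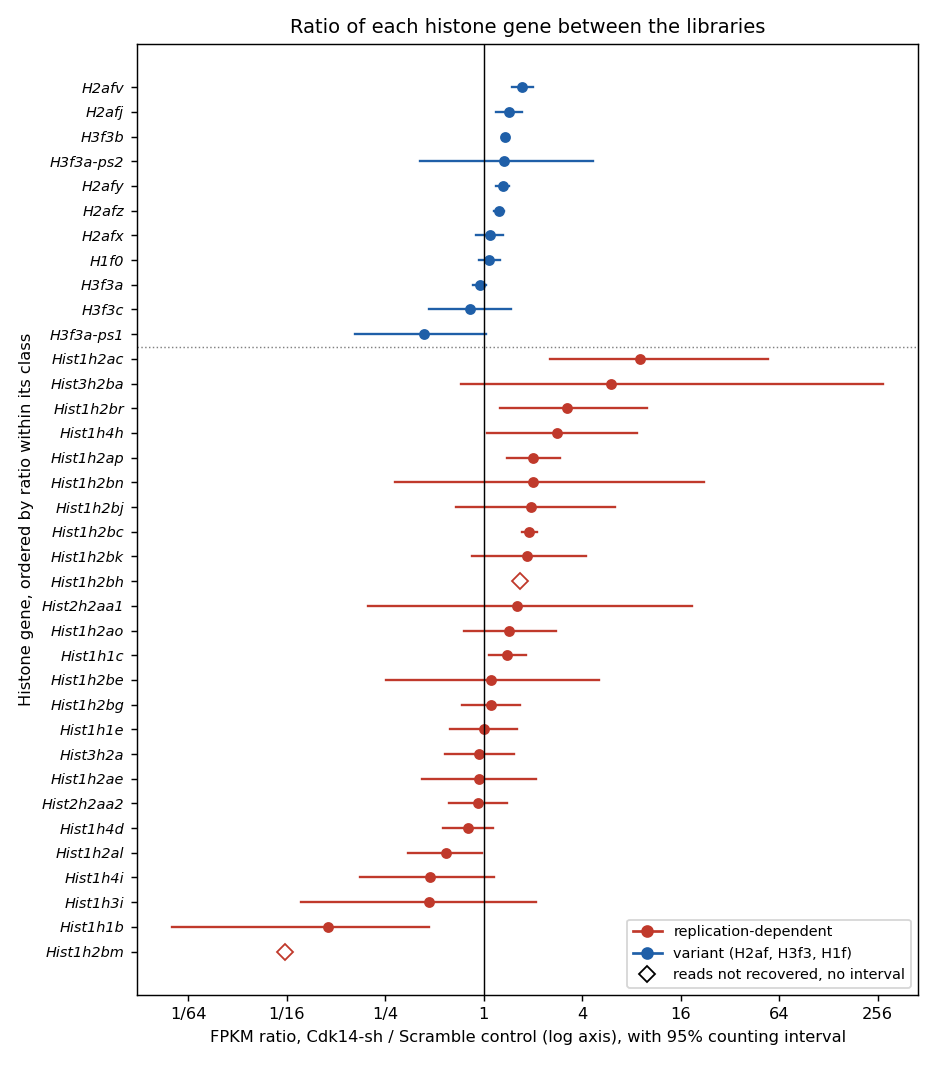
Ratio of FPKM, Cdk14-sh over Scramble control, for each histone gene on a log axis, with the 95% counting interval as a line, red for replication-dependent genes, blue for variants, and open diamonds where reads were not recovered. The intervals of 5 variants are narrow and lie above 1, whereas those of 15 replication-dependent genes span 1, such as Hist3h2ba from 0.729 to 276.

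Set against each other, the classes had similar centres and different spreads. The 23 measured replication-dependent genes had a median log2 ratio of 0.45, a range of -2.65 to 1.24 and an SD of 0.98. The 11 variants had a median of 0.32, a range of -1.03 to 0.77 and an SD of 0.48. Over all 12819 measured genes the median was 0.02 and the SD 1.02, so the spread of the replication-dependent genes was close to that of genes at large. The difference of the class medians was 0.14 and is not a stable order. With Hist1h2be and Hist2h2aa1, the members under 1 FPKM, included it was -0.01 (medians 0.31 and 0.32). With H2afx counted among the replication-dependent genes it was -0.02, whereas with only stem-loop genes kept in that class it stayed at 0.14. Log2 ratios above 0 were found in 14 of 23 and in 8 of 11 members, against 51.4% of all measured genes.

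At the 2-fold limit, 3 of 23 replication-dependent genes were higher (Hist1h2ac, Hist1h4h and Hist3h2ba) and 2 lower (Hist1h2bm and Hist1h1b), where 14.3% and 13.5% of all measured genes were. Of the variants, 0 of 11 were higher and 1 was lower (H3f3a-ps1). These shares are near or below those of all genes. Abundance moves with them: all 5 of the 2-fold different replication-dependent genes were among the 14 with a mean of 1 to 5 FPKM, a range in which 35.9% of all genes were 2-fold different, and 0 of the 9 at 5 FPKM or more were, against 24.9% of genes at 5 to 50 FPKM and 14.2% of those above. Of 5 measured replication-dependent genes with 1 library under 1 FPKM, Hist1h2br was the only one that was not 2-fold different on the log2 scale. Beyond the counting interval, 6 of the 23 replication-dependent genes with an annotated length were higher (Hist1h2ac, Hist1h2br, Hist1h4h, Hist1h2ap, Hist1h2bc and Hist1h1c). Of the 23, 2 were lower (Hist1h1b and Hist1h2al). Among all listed genes with a length, 34.2% were higher and 29.7% lower. Reads of Hist1h2ac, Hist1h4h, Hist1h2bc and Hist1h2al came to fractions other than 0.5, so their intervals are approximate. Of the variants 5 of 11 were higher (H2afv, H2afj, H3f3b, H2afy and H2afz) and 0 lower, against 35.9% and 33.2% of measured genes with a length.

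By the form of the annotated mRNA, the 8 replication-dependent genes whose model ends within 60 bases of the stem-loop had a median log2 ratio of 0.61 over all listed, the 11 whose model runs on further 0.03, and the 6 without a stem-loop in the model -0.07. The corresponding sums went from 64.3 to 88.1 FPKM, from 59.3 to 65.0 FPKM and from 134.6 to 210.5 FPKM. The last of these is mostly Hist1h2bc. The models show where the annotation ends and not where the sequenced mRNAs ended, so these groups are a description of the annotation.

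Head-to-head pairs gave a view of neighbouring genes with common upstream DNA. Of the 25 replication-dependent genes, 3 pairs had starts less than 500 bases apart on opposite strands, all on chromosome 13. Hist1h2ac and Hist1h2bc, 251 bases apart, were both higher in Cdk14-sh, 9.01-fold and 1.91-fold, and differed in level: Hist1h2bc was at 99.5 and 189.7 FPKM and Hist1h2ac under 2 FPKM in both. Hist1h2ap and Hist1h2br, 236 bases apart, were also both higher, 2.02-fold and 3.25-fold. Hist1h2ae and Hist1h2bg, 176 bases apart, were both near level, with ratios of 0.941 and 1.11. In the windows printed above, all 3 motifs were present in the pair near level and in the pair of Hist1h2ac and Hist1h2bc.

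Near-identical copies limit what a value for 1 replication-dependent gene means. In 10 of the 25 replication-dependent genes over 50% of the 50-base stretches also occur in other genes' transcripts (median 43.8% over the class), against a median of 6.86% over the variants, of which only the 3 pseudogenes passed 50%. The recovered read numbers also differed between the classes. They were whole in both libraries for 10 of 11 variants and for 6 of the 23 replication-dependent genes with an annotated length. Of these 23, 5 had steps of 0.5 reads (Hist1h2ao, Hist1h2ap, Hist1h2bj, Hist1h2bk and Hist1h1c) and 12 had other fractions. Gene by gene, fractions did not follow the sharing. The 3 variant pseudogenes had whole numbers, whereas H1f0, the variant without them, shared no 50-base stretch. Hist1h4d, with other fractions, shared 10.2%, and Hist1h2br, with whole numbers, 88.7%. Lengths that differ from the authors' also give fractions, and the sources used here do not say how reads that fit several genes were counted; the part of either was not tested. Hist2h2aa2 shared all of its 50-base stretches with other transcripts, and Hist1h1e and Hist1h2be overlap on the same strand. The median log2 ratio was 0.53 over these 10 genes and 0.03 over the other 15.

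Genes that act on histone mRNA were also described from lists, whose counts are to be read against all measured genes: 14.3% at least 2-fold higher, 13.5% lower and 51.4% above 0. Of 30 genes of histone mRNA 3′ end processing, 28 were measured, with a median log2 ratio of 0.30; 3 were at least 2-fold higher, 0 lower and 20 above 0. Slbp itself was at 15.4 and 21.2 FPKM, 1.38-fold higher (1.22 to 1.55). The highest were Cpsf1, a cleavage factor subunit, at 0.0870 and 5.15 FPKM, Cstf3 at 1.37 and 12.4 FPKM, 9.02-fold higher (6.52 to 12.8), and Snrpg, an Sm protein of the U7 particle, at 19.5 and 48.5 FPKM. Cpsf1 had about 5 reads in Scramble control, and the filter on the mean kept it through Cdk14-sh. The lowest were Lsm10, a subunit particular to the U7 particle, at 12.9 and 6.25 FPKM, Cpsf2 at 7.83 and 3.73 FPKM, and Cstf2t at 9.55 and 4.66 FPKM. Genes with Cpsf and Cstf symbols thus stood at both ends of the list.

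Of 22 regulators of histone gene transcription, 19 were measured, with a median of 0.10, and 3 were 2-fold higher and 4 lower. Ccna2 and Gapdh, among the higher, were under 1 FPKM in Scramble control, so the filter on the mean kept them through Cdk14-sh. Ccne1 and Pou2f1, among the lower, were under 1 FPKM in Cdk14-sh and were kept through Scramble control. Npat, the coactivator of the histone clusters, was at 3.30 and 6.09 FPKM, 1.84-fold higher (1.45 to 2.36). The cyclins that drive it were spread over the list. Ccna2, cyclin A, was at 0.0721 and 3.07 FPKM, and Ccne1, cyclin E1, at 5.68 and 0.295 FPKM, 19.2-fold lower (7.21 to 72.4). Ccne2, cyclin E2, lay between them at 1.15 and 1.90 FPKM, a ratio of 1.65 (0.925 to 3.01). Nme1 was at 19.4 and 47.5 FPKM. Pou2f1, which encodes OCT1, the octamer-binding factor known for H2B transcription, was at 3.22 and 0.847 FPKM, 3.81-fold lower (2.92 to 5.01). E2f4 was at 38.3 and 18.0 FPKM. Gapdh, part of the OCT1 coactivator and a gene with many processed copies, was listed at only 0.333 and 2.20 FPKM, although its enzyme is abundant in most tissues. The part of copies in the histone values was not tested.

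Chaperones that carry new histones to replicating DNA had a median of 0.36 over 12 measured genes, with 1 at least 2-fold higher (Ipo4, an importin of H3 and H4, at 6.51 and 17.9 FPKM), 0 lower and 9 above 0. Chaf1b, a subunit of the CAF-1 complex, was at 1.49 and 3.81 FPKM and Asf1b at 0.924 and 2.19 FPKM, while Supt16, of the FACT complex, was at 27.3 and 20.3 FPKM, Tonsl at 15.8 and 13.7, and Mcm2 at 1.98 and 1.84. Factors that deposit variants had a median of 0.26 over 18 measured genes, with 6 at least 2-fold higher, 0 lower and 14 above 0. Yeats4, shared by the complexes that load H2A.Z, was at 3.91 FPKM in Scramble control and in Cdk14-sh 6.40-fold higher (4.28 to 9.89). Actl6a was at 5.32 and 16.7 FPKM, and Cenpa, the centromeric H3 variant that the symbol rule leaves out, at 0.268 and 3.82 FPKM. The filter on the mean kept Cenpa through Cdk14-sh. The lowest were Ubn2, a partner of the H3.3 chaperone, at 6.08 and 2.80 FPKM, Ep400 at 6.16 and 4.46, and Hjurp at 6.88 and 5.59.

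Genes of the cell cycle give the setting for the S-phase class. Of 46 S-phase genes, 34 were measured, with a median log2 ratio of 0.65; 10 were at least 2-fold higher, 2 lower and 25 above 0. Of these 34 genes, 10 were under 1 FPKM in Scramble control and 2 in Cdk14-sh, and over all 39 listed the median was 0.57. The highest were Mcm5 at 0.0492 and 6.10 FPKM, Mcm6 at 0.0421 and 5.14, and Dnmt1 at 0.306 and 6.57; the lowest were Ccne1, Rpa2 at 12.4 and 4.50 FPKM, and Cdk2 at 55.9 and 28.0. Pcna, the sliding clamp of replication, was at 76.8 and 66.8 FPKM. Of 25 G2/M genes 11 were listed, with a median of 1.20. Of these, 8 were measured, 5 of them under 1 FPKM in Scramble control, so that the filter on the mean kept them through Cdk14-sh and their median of 1.85 depends on it. Of the 8, 5 were at least 2-fold higher, among them Tacc3 at 0.0276 and 7.33 FPKM, Ccnb1 at 0.0466 and 7.43, and Ect2 at 0.0365 and 5.22, and 0 lower. Mki67 was at 1.51 and 0.859 FPKM, the 1 measured G2/M gene below 0. The 11 measured genes of cell cycle exit had a median of -0.31, with Cdkn1c at 39.7 and 197 FPKM, and with Cdkn2d at 30.1 and 8.74, Rb1 at 12.8 and 4.93 and Rbl2 at 6.08 and 2.26 FPKM. Over the 12 S-phase genes at 5 FPKM or more on average the median was 0.04, and over the 9 such replication-dependent histone genes 0.45. Only 1 G2/M gene, Ccnb2 at 3.98 and 12.2 FPKM, reached this level, with a log2 ratio of 1.41.

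**Figure D4:**
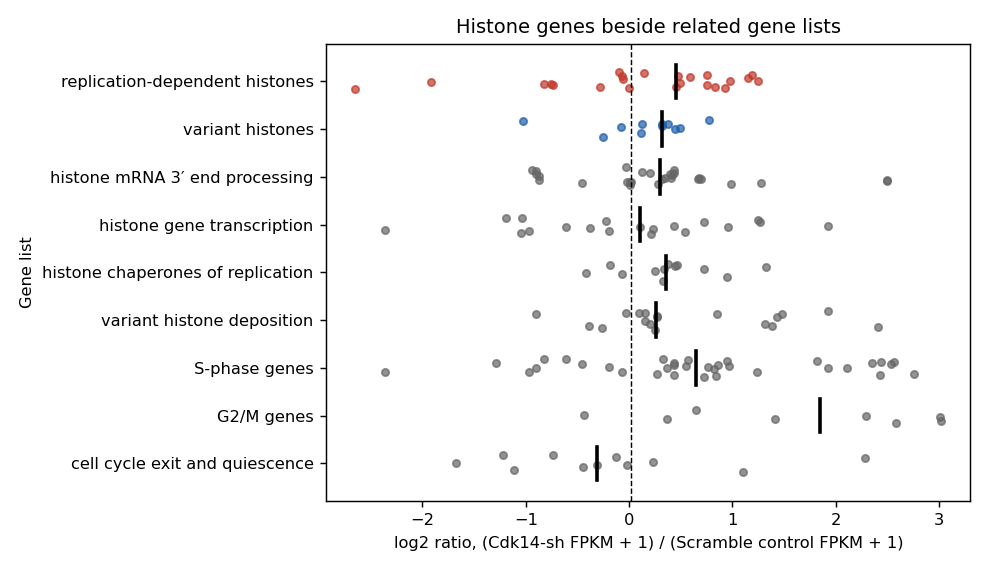
Log2 ratio of each measured gene (1 FPKM added to both libraries) for the histone classes and the lists of related genes, 1 point per gene with small vertical offsets for legibility, a black bar for the median and a dashed line for the median of all measured genes, 0.02. The replication-dependent histone genes (median 0.45) range from -2.65 to 1.24 and the variants (median 0.32) from -1.03 to 0.77. The S-phase and G2/M genes above 2 were all under 1 FPKM in Scramble control, so the filter on the mean kept them through Cdk14-sh.

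For the series as a whole, the values correspond to 10186924 reads in Scramble control and 10177185 reads in Cdk14-sh. The hairpin's target Cdk14 was at 2.06 and 0.713 FPKM, 0.345 of the control level (0.258 to 0.457). Markers of other cells differed between the libraries. Endothelial markers summed to 249 and 62.3 FPKM (8 of 11 measured at least 2-fold lower), luminal to 1892 and 1048 (3 of 12 higher, 5 lower), pericyte to 127 and 60.03 (1 of 4 higher, 3 lower), fibroblast to 299 and 121 (3 of 6 higher, 2 lower), and immune to 108 and 414 (5 of 7 higher). All 15 basal markers were listed, summing to 4741 and 3278 FPKM, with 2 higher and 4 lower; of 12 retina markers 3 were listed, and their sum was 131 and 123 FPKM, nearly all from Gnb1, which other tissues also express. No marker at 0 would be listed, and the part of these cell types in the histone values was not tested.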

How the data were processed

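Messenger RNA of mouse mammary basal cells was sequenced in 2 libraries, Scramble control and Cdk14-sh, assigned by the sample titles. The authors deposited 1 table of FPKM values. The submitters' processing notes name Bowtie 0.12.2, Subread 1.5.1 and its counter featureCounts, and both GRCm38 and mm8, without saying which was used where. The sources used here do not say whether counting used strand or how multiply mapped reads were counted.

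Reads were recovered from FPKM and exonic lengths of GENCODE M21; 79.2% of the 15195 genes with a length came to multiples of 0.5 reads in both libraries (tolerance 0.01 reads). Of the whole read numbers 70.7% and 67.2% were even, so 2 reads were taken as 1 fragment. Intervals are exact 95% Clopper-Pearson intervals for counting error only. The members and lists were chosen with earlier results of these data known. Named were all variants, the 8 highest and 8 lowest log2 ratios and the 6 highest levels of the measured replication-dependent genes, and up to 3 highest and 3 lowest of each list; other names were chosen after their values were seen. Where genes share a symbol, the higher was used. Promoter sequences are from RefSeq (GRCm38.p6): 30 of 36 members matched. The scripts were tested on simulated data. Alternatives were 11 settings of pseudocount, filter, scaling, limit and class. Python 3.11.15, numpy 2.4.6, pandas 2.3.3 and scipy 1.17.1 were used.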

Additional observations from a re-analysis of the deposited data

How the results depend on the processing

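No paired analysis was possible because each group has 1 library, and no library could be left out. The 36 single genes were recomputed under 4 of the 11 alternative settings (pseudocounts and scalings), and 138 of 144 values stayed within their tolerance. A gene's tolerance was set by the width of its counting interval on the log2 scale, or at 0.1 without an interval. It was thus wide for genes with few reads. For Hist3h2ba it was 4.28, so 2.27 and 0.38 under the 2 pseudocounts counted as unchanged from 1.15. A pseudocount cannot change the sign of a log2 ratio, so only the scalings could. Under them 0 of the genes 2-fold different changed sign, whereas Hist1h1e, level at 0.0011, did in 2 settings (-0.0170 and -0.0594). Of 139 summary values over all settings 101 stayed (counts within 1.5 times, medians within 0.1). The alternatives for the gene lists were chosen after seeing the data. With a pseudocount of 0.1 FPKM, 5 replication-dependent genes were higher and 4 lower, and the medians were 3.32 for G2/M and 0.82 for S-phase genes. With 5 FPKM, 0 were higher and 1 lower, 0 variants were lower, all genes gave 677 higher and 611 lower, and the medians were 0.21 (replication-dependent), 0.17 (variant, 0.1660), 0.89 (G2/M), 0.32 (S-phase) and 0.17 (3′ processing, 0.1716). With no filter the replication-dependent median was 0.31, the difference of class medians -0.0053 and the G2/M median 1.20. At a mean of at least 5 FPKM, 0 replication-dependent genes were higher and 0 lower, all genes gave 946 and 908, the variant median was 0.22, the difference 0.24, and the medians were 1.41 (G2/M), 0.04 (S-phase, 0.0369) and -0.04 (transcription, -0.0443); fewer genes are tested there. With both columns scaled up to the same sum, which also lowers the weight of the pseudocount, 4 replication-dependent genes were higher and 4 lower, all genes gave 2395 and 2417, and the medians were 2.04 (G2/M) and 0.83 (S-phase). At 1.5-fold, 9 replication-dependent genes were higher and 5 lower, 1 variant was higher, and all genes gave 3239 and 3139. With H2afx counted as replication-dependent the medians were 0.30 for that class and -0.02 for the difference (-0.0218). With only stem-loop genes 1 replication-dependent gene was lower, and without pseudogenes 0 variants were. The causes were not tested. Depth limits the low members: 11 of 23 replication-dependent genes had fewer than 20 reads in at least 1 library, against 2 of 11 variants.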
